A study of Mus musculus with 6 samples.

Results

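The Hox genes are the homeobox transcription factors that lie in the 4 mouse clusters Hoxa, Hoxb, Hoxc and Hoxd, and their levels were examined in MC3T3-E1 cells, a clonal pre-osteoblast line from mouse calvaria (the skull vault). Members were all protein-coding rows whose symbol is Hox followed by a, b, c or d and a number, which took 40 of the 54532 rows and 39 symbols, since Hoxd4 is listed under a pair of identifiers. The samples form 2 groups of 3. The NC samples, the controls, were grown in osteogenic medium for 3 days, and the Met samples received 0.2 mM metformin, a biguanide that lowers blood glucose, in the same medium for the same time. Neither figure is in the labels: the time was taken from the study's methods and the dose from its results. No gene was edited in either group, and each result is from this line alone.

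Hox proteins bind DNA and give cells of the embryo a position along the head-to-tail axis. Each cluster is ordered on its chromosome: low-numbered genes are used toward the head, high-numbered genes toward the tail and the ends of the limbs, and genes with the same number in different clusters are paralogs. Neural crest cells that form the face and the front of the skull vault are known for lacking Hox expression, whereas the trunk and limb skeleton keeps a Hox code into adult life. Chromatin proteins of the Polycomb group hold unused Hox genes silent, and retinoic acid activates genes at the low-numbered end.

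The deposited values are FPKM, reads scaled by gene length and library size, and were whole multiples of 1 read in every library, so the reads behind each value could be recovered. Library totals lay between 18399861 and 22111790 reads. At this depth 3 reads, taken as the smallest count that shows expression, correspond to 0.0327 to 0.159 FPKM for the Hox genes that had no read, which covers counting error only. NC1 stood apart from the other controls: across genes its log2 values correlated with those of NC2 and NC3 at 0.960 and 0.952, against 0.988 between NC2 and NC3 and 0.992 for the lowest pair of Met samples, and its deviation followed the GC content of the genes with a Spearman coefficient of -0.668. Of 11 osteoblast markers, 10 had a mean of at least 0.5 FPKM, among them Runx2 at 28.6 FPKM and Sp7 at 47.5 FPKM, the factors that commit cells to bone, while Phex was at 0.330 FPKM. With metformin 2 of these 10 were higher (Col1a1 and Col1a2) and 3 lower (Ibsp, Spp1 and Dmp1), against 13.2% higher and 9.28% lower among all 12681 genes tested (limma-trend, adjusted p under 0.05). Leaving out 1 library at a time kept the calls of Ibsp, Spp1 and Dmp1, but Col1a1 lost its call without each Met sample (adjusted p 0.0749 to 0.0942) and Col1a2 without Met1 or Met2 (0.0525 and 0.0572). Summed levels of the 5 endothelial, 5 epithelial and 5 muscle markers stayed at or under 0.156, 0.0855 and 0.443 FPKM in every sample, and none of the 15 reached the limit for testing. Among 5 markers each of blood cells, cartilage and fat, those tested were 2, 3 and 1. Ptprc was at 0.00260 FPKM, Acan at 0.00768 FPKM and Adipoq at 0.0317 FPKM. In contrast, Lyz2 was at 22.6 FPKM, Sox9 at 23.0 FPKM, Col2a1 at 9.32 FPKM and the fat marker Fabp4 at 2.13 FPKM. Cd68 and Col10a1 were lower with metformin, though Cd68 was not called without Met1 (limma, adjusted p = 0.0581). Col10a1 passed the limit through its NC values alone, with means of 3.79 FPKM in NC and 0.264 FPKM in Met, so its call is no test of it. The part of these genes in the Hox values was not tested.

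Sequences around the start sites of 5 transcripts are shown first, because they lie on either side of the step between Hoxa10 and Hoxa11 or belong to genes described in detail. They are RefSeq sequences on GRCm38.p6, from 250 bases before to 50 bases after the start, written 5' to 3' on the gene's own strand, with every CG dinucleotide in capitals. CG was counted along the strand shown, and since it reads the same on the other strand the count holds for both. Hoxa10, whose distal start lies at the end of its longest span (chr6:52240805-52241104, minus strand, 12 CG) and whose proximal start lies inside it (chr6:52234890-52235189, minus strand, 21 CG), was the highest Hox gene. Hoxa11 (chr6:52245761-52246060, minus strand, 15 CG), the next gene on the chromosome, had no read. Hoxa5 (chr6:52204538-52204837, minus strand, 29 CG) ranked next to Hoxa10, and Hoxc4 (chr15:103034145-103034444, plus strand, 9 CG), whose start here lies inside the listed span of the gene, was one of the trace genes of the Hoxc cluster.
Hoxa10 distal start: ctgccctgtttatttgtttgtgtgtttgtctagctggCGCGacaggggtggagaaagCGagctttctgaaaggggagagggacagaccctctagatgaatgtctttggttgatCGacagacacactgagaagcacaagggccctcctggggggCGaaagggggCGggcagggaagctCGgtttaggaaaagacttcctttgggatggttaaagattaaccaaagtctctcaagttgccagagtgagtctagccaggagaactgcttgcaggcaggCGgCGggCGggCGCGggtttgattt
Hoxa10 proximal start: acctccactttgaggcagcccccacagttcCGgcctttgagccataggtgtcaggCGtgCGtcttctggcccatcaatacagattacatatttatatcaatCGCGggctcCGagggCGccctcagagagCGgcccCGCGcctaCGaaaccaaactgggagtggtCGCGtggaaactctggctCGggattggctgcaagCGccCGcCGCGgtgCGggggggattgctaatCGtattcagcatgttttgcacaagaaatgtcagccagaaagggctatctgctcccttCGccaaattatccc
Hoxa11: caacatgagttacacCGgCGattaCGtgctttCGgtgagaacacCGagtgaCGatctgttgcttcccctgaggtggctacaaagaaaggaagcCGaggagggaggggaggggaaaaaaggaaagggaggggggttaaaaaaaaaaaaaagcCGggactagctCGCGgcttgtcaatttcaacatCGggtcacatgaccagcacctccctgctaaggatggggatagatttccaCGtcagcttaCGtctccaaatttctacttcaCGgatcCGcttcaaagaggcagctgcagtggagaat
Hoxa5: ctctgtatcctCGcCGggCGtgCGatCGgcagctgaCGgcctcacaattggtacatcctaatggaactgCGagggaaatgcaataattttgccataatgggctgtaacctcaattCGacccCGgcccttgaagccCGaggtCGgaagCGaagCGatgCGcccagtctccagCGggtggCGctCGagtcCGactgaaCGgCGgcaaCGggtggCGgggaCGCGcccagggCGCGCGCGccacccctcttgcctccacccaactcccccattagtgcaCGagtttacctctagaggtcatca
Hoxc4: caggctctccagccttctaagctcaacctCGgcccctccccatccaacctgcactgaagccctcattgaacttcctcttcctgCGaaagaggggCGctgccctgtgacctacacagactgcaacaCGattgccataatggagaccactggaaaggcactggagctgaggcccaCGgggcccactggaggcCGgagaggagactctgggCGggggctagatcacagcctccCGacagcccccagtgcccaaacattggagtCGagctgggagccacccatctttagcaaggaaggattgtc

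The table of start sites held 24 windows for 22 of the 39 Hox symbols. Every one of these windows held a CG, as did 94.6% of all 32851 windows, and the median was 14.5 CG per Hox window against 7 over all. The median was 20.5 in the 6 windows of members past the limit for testing, 20 in the 12 windows of members with no read and 9 in the 6 windows of members with reads but a mean under that limit, which range from Hoxa9 with 183 reads in all to Hoxd8 with 1. Hoxa13, with no read, had 45 CG, which only 1.93% of all windows reach, and the Hoxd13 window held 37. The letters TATAAA, searched on both strands, stood in 4 of the 24 Hox windows (16.7%) and in 13.6% of all windows. Among the sequences printed they stood in the proximal window of Hoxa10, where the strand shown reads their reverse complement.

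Hoxa was the cluster in use in this line. Over the 6 samples it held 4634 of the 5429 Hox reads, against 655 for Hoxb, 139 for Hoxc and 1 for Hoxd. Of the 40 rows, 26 had at least 1 read and 14 had none. Rows with a read numbered 9 of 11 in Hoxa, 9 of 10 in Hoxb, 7 of 9 in Hoxc and 1 of 10 in Hoxd. A mean of 0.5 FPKM, the limit set for testing, was reached by 6 Hoxa genes, 1 Hoxb gene and no Hoxc or Hoxd gene, so 7 rows were tested and 33 were not. In summed FPKM, Hoxa stood at 16.4, 15.5 and 15.2 in the NC samples and 14.1, 16.1 and 14.6 in the Met samples. The Hoxb sum was 0.898, 2.55 and 3.42 in NC and 2.18, 1.47 and 2.55 in Met. In Hoxc it was 0.179, 0.344 and 0.269 in NC and 0.637, 0.444 and 0.810 in Met. The sums of Hoxa and Hoxb overlapped between the groups and those of Hoxc did not. Such separation was common in single genes: of those with at least 10 reads in all, 19.7% had every Met sample above every control and 18.5% below. Hoxa had 85.4% of all Hox FPKM on average, from 80.5% in NC3 to 93.8% in NC1.

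**Figure D1:**
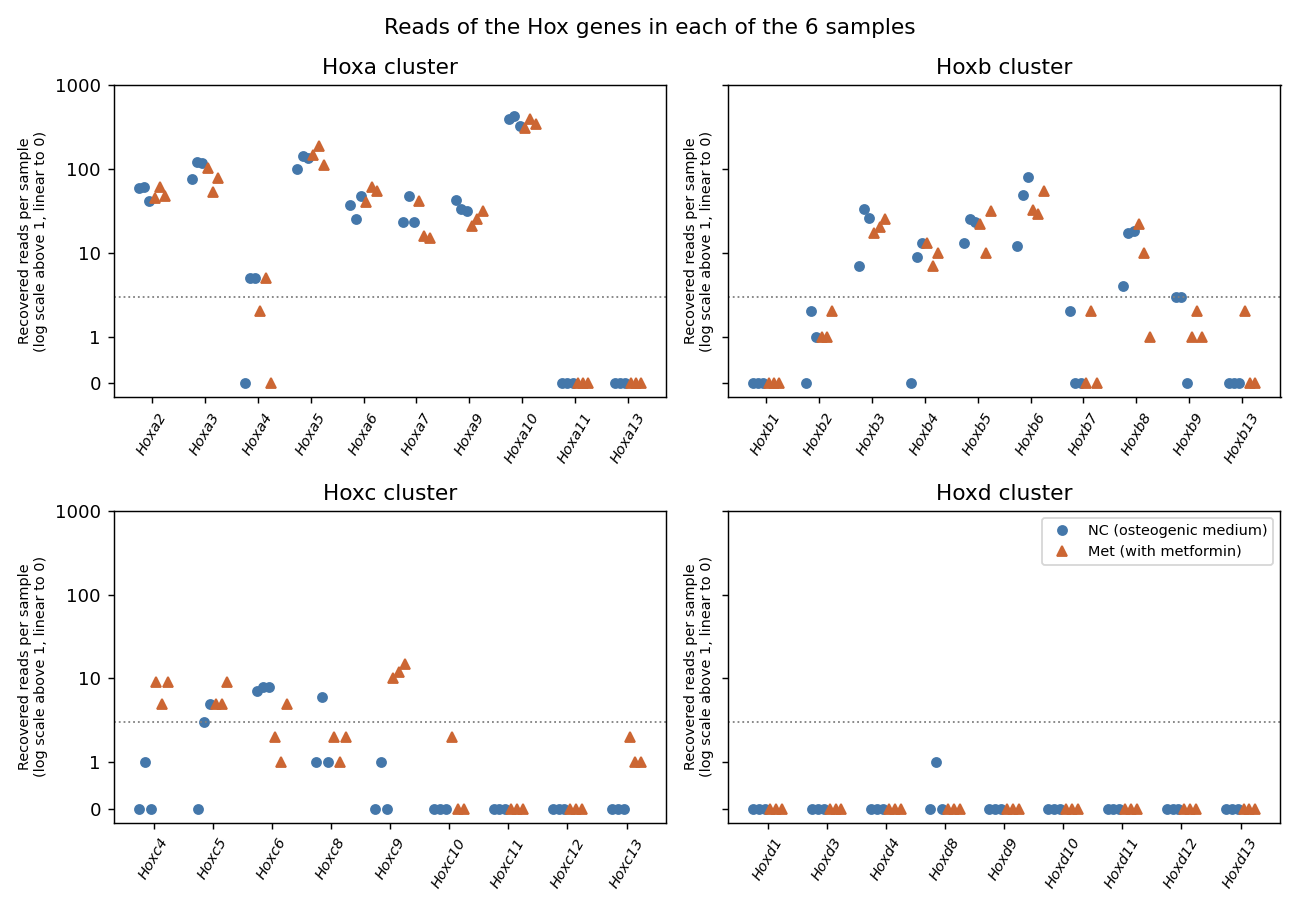
Recovered reads of the Hox genes described here (y axis, log scale above 1 and linear from 0 to 1) in the 3 NC samples (circles) and 3 Met samples (triangles), with 1 panel per cluster, genes in numerical order and the rows of Hoxd4 added together. The dotted line marks 3 reads; 8 of the Hoxa genes shown, 6 Hoxb genes, 5 Hoxc genes and no Hoxd gene reach it in some sample, and the highest value is 424 reads for Hoxa10.

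Rows with no read lay at both ends of the numbering. Paralog groups 11 to 13 have 9 rows, of which 7 had no read, and their 6 reads in all belonged to Hoxb13 and Hoxc13. The other 7 rows with no read were Hoxb1, Hoxd1, Hoxd3, both rows of Hoxd4, Hoxd9 and Hoxd10. Group 10 held 30.9% of the Hox FPKM, almost entirely from Hoxa10, group 5 held 22.7% and group 6 held 20.7%. Group 6, which acts in the thoracic skeleton, had reads in each of its clusters, as did groups 2, 5, 7 and 8. Its means were 2.53 FPKM for Hoxa6, 1.08 FPKM for Hoxb6 and 0.109 FPKM for Hoxc6.

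Hoxa10, which gives lumbar vertebrae their rib-free identity, was the most abundant Hox gene at 6.55, 6.18 and 5.04 FPKM in NC and 4.72, 5.45 and 5.31 FPKM in Met. Its lowest sample lay above the highest of Hoxa5, the next gene in order, and this was the one neighbouring pair in the order of the 26 genes with reads whose ranges did not overlap. Hoxa10 alone made up 30.8% of the Hox FPKM. Even so, 56.0% of the 12681 tested genes had a higher mean. On the chromosome (GRCm38 coordinates of the deposited table) Hoxa10 occupies chr6:52231197-52240854 and Hoxa11 chr6:52242106-52245810, with 1251 bases between them. Hoxa10 had 306 to 424 reads per sample, whereas Hoxa11 and Hoxa13 had 0 in every sample, a count that allows up to 0.0718 and 0.0665 FPKM. Hoxa11os, the transcript opposite Hoxa11, and Evx1, the homeobox gene beyond Hoxa13, also had 0 reads. On its other side Hoxa10 lies 107 bases from Hoxa9, which had 21 to 42 reads in every sample. Reads were thus counted for Hoxa10 and for no Hox gene beyond it, in both groups. Values per gene do not show where within Hoxa10 or the gap the transcripts begin.

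Hoxa5, needed for the neck-to-thorax transition of the skeleton and for the lung, had 2.89, 3.66 and 3.69 FPKM in NC and 3.92, 4.57 and 3.06 FPKM in Met. Hoxa6, a thoracic gene, had 2.32, 1.36 and 2.79 FPKM in NC and 2.31, 3.20 and 3.17 FPKM in Met. These genes made up 20.2% and 14.1% of the Hox FPKM, and both overlapped between the groups. Hoxa2, a gene that sets branchial arch identity and restrains membrane bone there, had 1.82, 1.61 and 1.18 FPKM in NC and 1.28, 1.55 and 1.36 FPKM in Met. Hoxa3, which patterns the throat skeleton and the thymus, had 0.683, 0.951 and 0.998 FPKM in NC and 0.846, 0.404 and 0.666 FPKM in Met. Both groups again overlapped for each gene. Counting may have mixed some genes, because the strand setting is not stated in the sources used here: 27.1% of the exon bases of Hoxa3 and 15.04% of those of Hoxa2 are also exon bases of another gene, while Hoxa5, Hoxa6, Hoxa10 and Hoxb6 share none.

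Hoxa7 lay just under the limit at a mean of 0.480 FPKM, with 23, 48 and 23 reads in NC and 41, 16 and 15 in Met. Hoxa9, a thoracic and lumbar gene, had a mean of 0.276 FPKM although it had 21 reads or more in each sample, since its listed length is 5580 bases. Hoxa4 had 0 to 5 reads per sample. It is the gap in the expressed stretch of Hoxa, between Hoxa3 with 53 to 120 reads and Hoxa5 with 99 to 187.

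None of the 6 tested Hox genes described here passed the test between the groups (limma-trend on log2(FPKM + 1), which understates the changes of low genes, with Benjamini-Hochberg adjustment over 12681 genes and a threshold of 0.05). Over all tested genes 13.2% were called higher and 9.28% lower with metformin. One further tested Hox gene is not reported here, and the counts over the 6 say nothing of it. By that test 0 of the 6 had an unadjusted p under 0.05, though the share of all tested genes at that p was not counted. Voom on the recovered reads also called 0 of the 6, where it called 1776 higher and 1237 lower of all 12681 genes. Among all tested genes 23.6% had every Met sample above every control and 20.5% had every Met sample below, and of the 6 Hox genes 0 were separated in either way. The median log2 fold change of the 6 was -0.085, against 0.0053 over all tested genes. For Hoxa10 the NC mean was 5.92 ± 0.786 FPKM and the Met mean 5.16 ± 0.387 FPKM (SD, n = 3), a log2 fold change of -0.17 with a 95% interval of -0.43 to 0.10 (limma, adjusted p = 0.334). Hoxa5 had a log2 fold change of 0.13, with an interval of -0.21 to 0.47. Hoxa6 was at 0.32, with an interval of -0.14 to 0.79, and Hoxa2 at -0.07, with an interval of -0.37 to 0.22. For Hoxa3 the value was -0.20, with an interval of -0.53 to 0.13. The intervals of Hoxa10, Hoxa5 and Hoxa2 stayed within 0.5 of 0 on this scale. Those of Hoxa6, Hoxa3 and Hoxb6 did not, so changes of that size in them could not be told from none. By voom on the recovered reads the intervals were -0.51 to 0.13 for Hoxa10, -0.29 to 0.63 for Hoxa5 and -0.67 to 0.45 for Hoxa2. Each of these passed 0.5, so changes of that size were not excluded in these genes either.

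**Figure D2:**
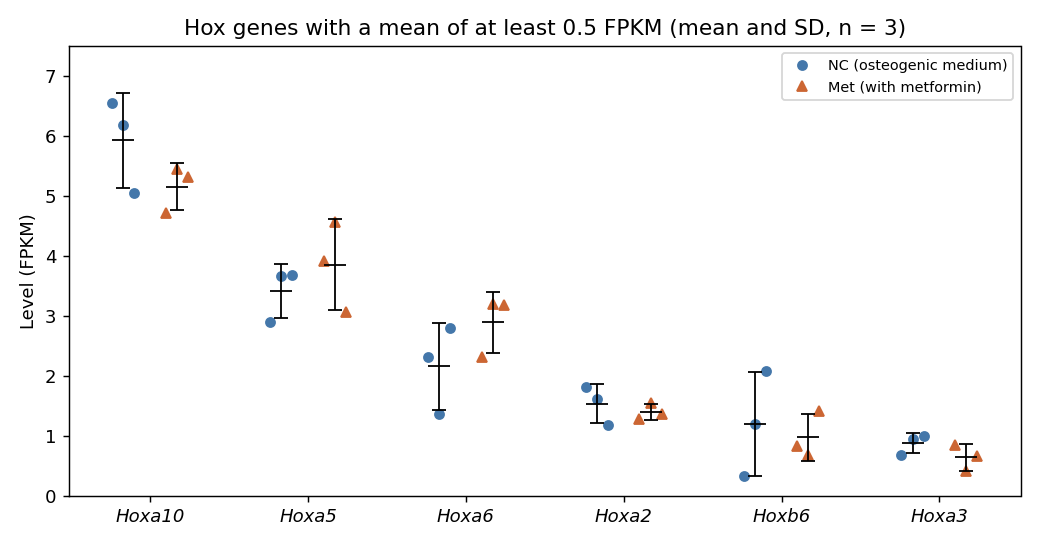
Level in FPKM (y axis) of 6 Hox genes with a mean of at least 0.5 FPKM, in order of their mean, with 1 point per sample and bars for the mean and SD of the 3 NC (circles) and 3 Met (triangles) samples. Hoxa10 lies between 4.72 and 6.55 FPKM, above every other gene, and the NC and Met points overlap for each of the 6.

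**Figure D3:**
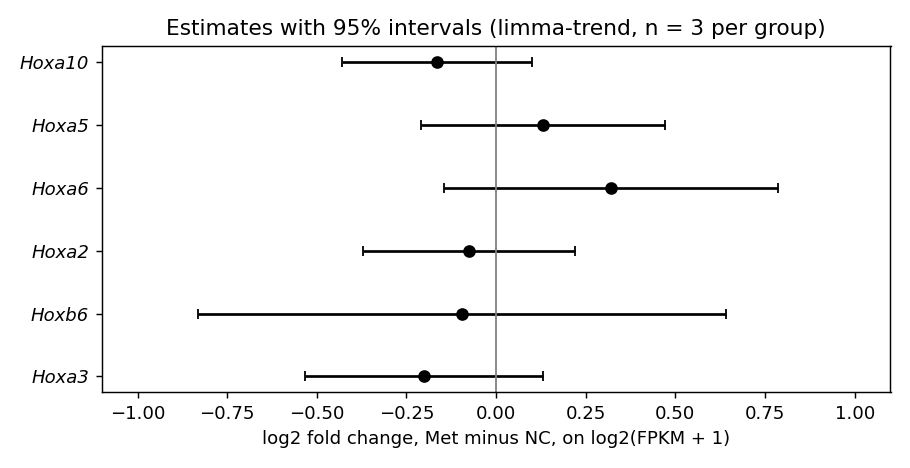
Log2 fold change of the same 6 Hox genes, Met minus NC (x axis, on the log2(FPKM + 1) scale), with its 95% interval from limma-trend, n = 3 per group. All 6 intervals include 0, and Hoxb6 has the widest, from -0.83 to 0.64.

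Noncoding RNAs at the low-numbered end of Hoxa were also few. Hotairm1 had 18, 63 and 44 reads in NC and 23, 21 and 24 in Met, with a log2 fold change of -0.48 (limma, adjusted p = 0.218). The groups overlapped for Hotairm1 through NC1. Halr1, a long noncoding RNA outside that end of the cluster that was added to the flanking genes after its values were seen, had 29, 20 and 14 reads in NC and 5, 7 and 5 in Met, a log2 fold change of -0.69 (limma, adjusted p = 0.0266). Its call was kept in 2 of the 6 fits that leave out 1 library, without NC1 and without NC3, and in the others the adjusted p was 0.0663 to 0.0943. Halr1 passed the limit for testing through its NC values alone, with means of 1.11 FPKM in NC and 0.282 FPKM in Met. These fits are therefore no test of it. Gm27477, a short annotated RNA next to Hoxa2, was called lower at -0.71 (limma, adjusted p = 0.00832) on 6 to 8 reads in NC and 3 to 4 in Met, and voom on the same genes did not call it, at 0.164. Of the 20 other genes inside Hoxa, 8 had a read.

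Hoxb was used at low level and in part. Hoxb6, a thoracic gene, was the one member tested, at 0.335, 1.19 and 2.07 FPKM in NC and 0.821, 0.678 and 1.41 FPKM in Met. NC1 and NC3, controls of the same group, bracketed all 3 Met samples. Its log2 fold change was -0.10 (95% interval -0.83 to 0.64). The Hoxb total was lowest in NC1: reads numbered 41 in NC1, 138 in NC2 and 161 in NC3, against 110, 81 and 124 in Met, while Hoxa reads in NC1 numbered 780, inside the range of 756 to 885 of the controls. The part of the GC deviation of NC1 in these values was not tested. Hoxb5 had 13, 25 and 23 reads in NC and 22, 10 and 31 in Met, and thus 10 reads or more in every sample, as only Hoxb6 had besides it in this cluster. Hoxb3 had 7 to 33 reads per sample, but 52.9% of its exon bases are shared with Hoxb3os on the other strand. Hoxb4 had 0 to 13 reads and Hoxb8 had 1 to 22. Hoxb9 reached 3 reads in NC1 and NC2 only, and Hoxb2, Hoxb7 and Hoxb13 never had more than 2. Hoxb1, a hindbrain gene, had none.

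Hoxc was close to silent, with 139 reads over the 6 samples. Hoxc9, a gene of the thoracic trunk, had 0, 1 and 0 reads in NC and 10, 12 and 15 reads in Met. Hoxc4, a gene of the neck and upper thorax, had 0, 1 and 0 reads in NC and 9, 5 and 9 reads in Met. For both, every Met sample lay above every control. Hoxc6 had 7, 8 and 8 reads in NC and 2, 1 and 5 in Met, with every Met sample below. Of all genes with at least 10 reads in all, 19.7% lay above and 18.5% below in this way. Hoxc5 had 0, 3 and 5 reads in NC and 5, 5 and 9 in Met, and Hoxc8 had 1, 6 and 1 against 2, 1 and 2. Hoxc13 had no read in NC and 2, 1 and 1 in Met, and Hoxc10 had 2 reads in Met1 alone. Hoxc11 and Hoxc12 had none. None of Hoxc9, Hoxc4, Hoxc6 and Hoxc8 shares exon bases with another gene, whereas Hoxc5 and Hoxc10 share 166. In bulk samples, more cells with a transcript and more transcripts per cell cannot be told apart.

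Per effective library, the 37 Met reads of Hoxc9 against 1 NC read gave a ratio of 35.7, with a 95% counting interval of 6.01 to 1446, and the 23 against 1 of Hoxc4 gave 22.2, with 3.599 to 913. These intervals cover counting error only. These genes were singled out after their values were seen, and at 0.128 and 0.0774 FPKM they lay under the limit for testing. Without that limit, over 24801 genes, limma-trend called Hoxc9 higher (log2 fold change 0.31 on the log2(FPKM + 1) scale, adjusted p = 0.00829) and Hoxc4 higher (0.19, adjusted p = 0.0341), and no other of the 26 Hox rows, where 5.77% of all genes were called higher and 3.56% lower. Voom on the 17468 genes with at least 10 reads in all, a fit added after the data were seen, called 10.5% of genes higher and 7.19% lower, and in that set 19.7% of genes lay above and 18.5% below without overlap. Hoxc9 and Hoxc4 reached that limit of 10 reads through their Met reads alone, so voom is no test of them. Hoxc6 was not called, at adjusted p-values of 0.0796 in limma and 0.119 in voom, except by limma without Met3, at 0.0295. It had 23 reads in NC and 8 in Met. Its NC reads alone thus brought it past 10 reads, and voom is no test of it either.

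The call of Hoxc9 by limma without the limit was kept in all 6 fits that leave out 1 library (adjusted p 0.0159 to 0.0449). That of Hoxc4 was not. It was kept only without Met2, at 0.0173, and the adjusted p was 0.0618 without NC1, 0.0953 without NC2, 0.102 without NC3, 0.125 without Met1 and 0.118 without Met3. The fits that leave out 1 library reuse the values by which both genes were picked, so they are no separate support. Without NC2 the remaining controls had 0 reads of either gene. With the replicate number as a block neither was called (limma, adjusted p of 0.0646 for Hoxc9 and 0.134 for Hoxc4). Even in Met3, the sample with most reads of Hoxc9, its level was 0.317 FPKM, below the lowest sample of Hoxa5 at 2.89 FPKM.

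**Figure D4:**
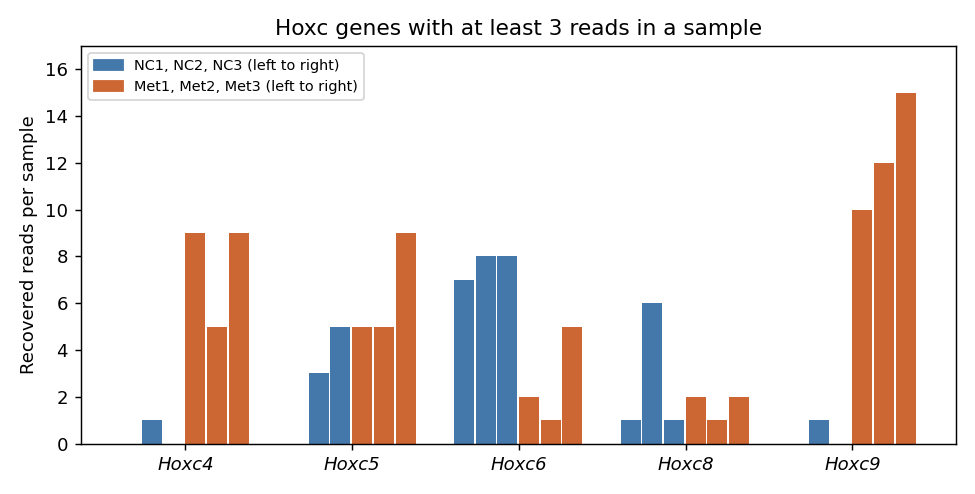
Recovered reads per sample (y axis) of the 5 Hoxc genes with at least 3 reads in some sample, with bars for NC1 to NC3 (blue) and Met1 to Met3 (orange) from left to right and no bar where a sample has 0 reads. Hoxc4 and Hoxc9 have 1 read over the 3 NC samples and 23 and 37 over the 3 Met samples, while Hoxc6 is lower in every Met sample.

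Hoxd was silent: 9 of its 10 rows had no read in any sample, and Hoxd8 had 1 read in NC2. For the Hoxd rows 3 reads, the count taken to show expression, correspond to 0.0327 to 0.0905 FPKM in a sample. Expression at lower levels would mostly fall short of that count at this depth. Of the exon bases of Hoxd3 62.8% are shared with other genes, and of those of the longer-spanning Hoxd4 row 52.3%, by an annotation whose model of that row is not the listed one, and how reads on shared bases were counted is not given in the sources used here. The protein-coding genes on either side were in use, Lnpk with 330 to 768 reads per sample and Mtx2 with 636 to 872. Evx2, the homeobox gene between Lnpk and Hoxd13, had 0 reads, and the 10 other genes inside the cluster had 6 reads in all. Around the other clusters, Skap2 beside Hoxa had 1283 to 1627 reads and Smug1 beside Hoxc had 416 to 568, but Skap1 beside Hoxb had 0 to 3.

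The TALE cofactors, the Pbx, Meis and Pknox proteins that bind DNA together with Hox proteins, comprised 9 genes, of which 7 were tested and 0 called in either direction (limma-trend, median log2 fold change -0.01), against 13.2% higher and 9.28% lower over all tested genes. At an unadjusted p under 0.05 the count was 1, Pknox1, whose adjusted p of 0.0746 was the lowest. The share of all tested genes at that unadjusted p was not counted. Voom on the recovered reads also called 0 cofactors, against 1776 higher and 1237 lower of all 12681 genes. Pbx2 at 14.4 FPKM and Meis3 at 12.7 FPKM were the highest, both above Hoxa10, and in each of them NC1 was the lowest sample. Meis1 and Pbx4 were under the limit.

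Of 24 regulators of Hox clusters 16 were tested, with 4 called higher, 2 lower and a median log2 fold change of -0.15, where all tested genes had 13.2% higher and 9.28% lower. Of the Polycomb genes, Bmi1, Ring1, Rnf2 and Cbx2 were not called. Ezh2, the enzyme that methylates histone H3 in Polycomb repressive complex 2, went from 6.17 ± 0.697 to 10.9 ± 0.601 FPKM (SD, n = 3; log2 fold change 0.74, limma adjusted p = 0.00295), and its partner Suz12 was higher at 0.61, while their partner Eed was lower at -0.29. Gdf11, a TGF-beta ligand that sets the trunk-to-tail shift of Hox codes, rose by 0.83. In the retinoic acid pathway Crabp2, which carries retinoic acid to its receptors, was lower at -1.17, with 18.2, 37.1 and 35.4 FPKM in NC and 11.97, 12.1 and 12.8 FPKM in Met, and Cyp26b1, which breaks retinoic acid down, was higher at 0.33. The receptors Rara, Rarg, Rxra and Rxrb were not called, and Rxra was the highest gene of the list at 46.3 FPKM. Ezh2 and Gdf11 were called in all 6 fits that leave out 1 library. Crabp2, Suz12, Eed and Cyp26b1 were called in 1 of the 6, the fit without NC1, and their adjusted p reached 0.0767, 0.110, 0.154 and 0.184. Cdx2 and Cdx4, activators of trunk Hox genes, had no read.

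Homeobox genes of the skull and skeleton outside the clusters numbered 28, of which 19 were tested, with 6 called higher, 2 lower (13.2% and 9.28% of all tested genes) and a median log2 fold change of 0.28. By level per length the list reached above the Hox genes: Prrx2, a factor of craniofacial and limb mesenchyme, stood at 112 FPKM, Six2 at 58.3 FPKM, Prrx1 at 37.6 FPKM and Dlx5 at 30.3 FPKM, against 5.54 FPKM for Hoxa10. Otx2, of the forebrain and anterior head, had no read, and Barx1, En2 and Meox2 had none either. Dlx5, a factor of skull and limb bone formation, rose from 20.5 ± 6.73 to 40.2 ± 0.416 FPKM (SD, n = 3; log2 fold change 0.99, limma adjusted p = 0.0246). Dlx2 rose by 0.96, Dlx1 by 0.84, Msx2 by 0.69, and Dlx6 by 0.65 on this scale. Dlx3 was lower at -0.82. Without any 1 library the calls of Msx2, Dlx1 and Dlx6 were all kept. Dlx5 kept its call in 3 of the 6 such fits, Dlx2 in 2, and Dlx3 in 1, the fit without NC1, with adjusted p-values up to 0.0899, 0.126 and 0.0826.

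**Figure D5:**
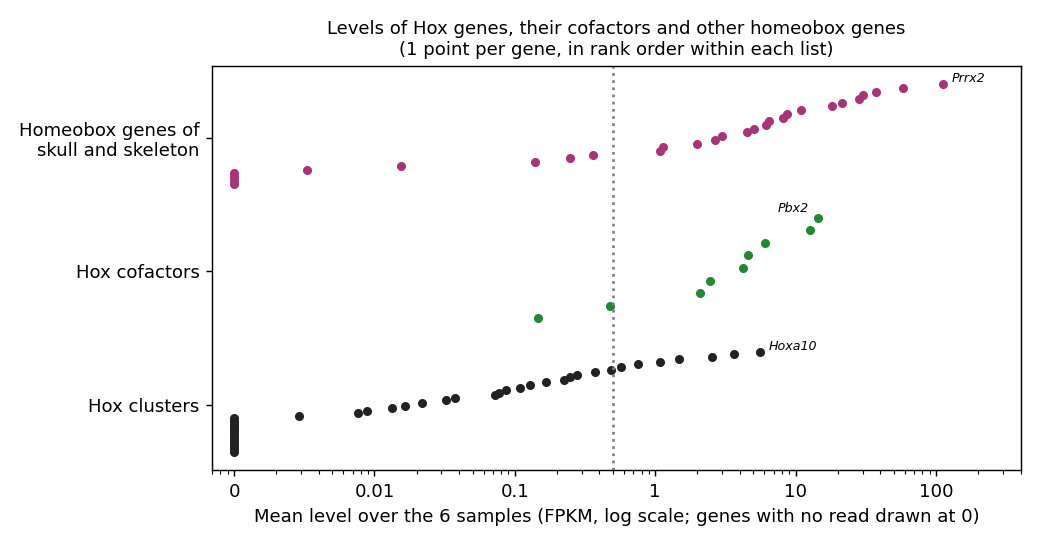
Mean level over the 6 samples (x axis, FPKM on a log scale, with genes at 0 drawn at the left edge) of the 40 Hox rows, 9 Hox cofactors and 28 other homeobox genes of the skull and skeleton, with 1 point per gene in rank order within each list and the highest gene named. The dotted line marks 0.5 FPKM; the highest Hox gene, Hoxa10 at 5.54 FPKM, lies below Pbx2 at 14.4 FPKM and Prrx2 at 112 FPKM.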

How the data were processed

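RNA sequencing of 3 NC and 3 Met samples of MC3T3-E1 cells was analysed from 1 deposited table. The table names no unit. The authors deposited values that behave as FPKM: times the listed gene length they were whole multiples of 1 step per library, within 0.01, for 100% of values above 0. Whole reads were recovered from these steps and totalled 18399861 to 22111790 per sample. No other column held per-sample values (0). The authors' own test was DESeq2, a count model, with 3 biological replicates per group by the paper's account. The submitters' processing notes name Bowtie 0.12.2 and the builds mm8 and mm9 with no role, whereas 38 of the 40 Hox rows have the coordinates and exon length of GENCODE M21 (GRCm38). The counting tool and its strand setting are not given in the sources used here.

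Genes with a mean of at least 0.5 FPKM (12681) were compared by limma 3.58.1 (R 4.3.3) with an intensity trend on log2(FPKM + 1), with Benjamini-Hochberg adjustment at 0.05. The plan named no count model, since the table was taken to hold FPKM. Hox genes under this limit are given as reads. Voom on the recovered reads, other pseudocounts, filters and scalings, a replicate block, leaving out each library and a correction for GC content were tried. The fits were tested on simulated data. Same-numbered samples did not deviate together (correlations of -0.053, 0.00027 and -0.055). The Hox genes, gene lists and markers were chosen with earlier results of these data known. Named genes were all tested Hox genes, those with at least 3 reads in a sample, and in other lists the called genes and the highest, except that some genes are counted in the totals but not reported by name here. Exon overlaps came from GENCODE M21, near-identical transcripts from BLAST+ 2.17.0 and promoters from RefSeq. No protein sequence was used here.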

Additional observations from a re-analysis of the deposited data

How the results depend on the processing

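No Hox gene passed the test in either direction under a pseudocount of 0.1 FPKM, 10 reads in every sample, scaling by total reads, voom on the same genes, the GC correction or any of the 6 fits without 1 library, where the counts of Hox genes called higher and lower ranged from 0 to 0. Without the filter on low values 2 were called higher (Hoxc9 and Hoxc4), as in voom on genes with at least 10 reads in all, which also called 2 but is no test of these genes, since their Met reads alone brought them in. With the replicate number as a block 0 Hox genes were called with the filter and 0 without it, where Hoxc9 reached an adjusted p of 0.0646 and Hoxc4 0.134. The labels do not say what a shared number means, and the block took all calls from 1670 higher and 1177 lower to 1161 and 698. The GC correction gave 2062 higher and 2433 lower (block and GC correction together 1703 and 1888), and leaving out 1 library gave 938 to 2969 higher and 495 to 2590 lower. The median shift of the log2 fold changes was -0.0542 under GC correction and -0.0246 under scaling by total reads.

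Log2 fold changes under these settings numbered 104 over all tested Hox genes, including the gene not reported by name. Of these, 101 kept their direction and their side of the threshold. Those that changed sign were Hoxa2 without NC1 (0.0060; -0.18 to 0.0060 over the 6 fits without 1 library) and Hoxb6 without NC3 (0.19) and without Met2 (0.012; -0.41 to 0.19 over the 6), each with an interval around 0 in the fit of all samples, and the cause was not tested. The number of expressed genes depended on its definition. Hoxb had 2 with 10 reads in every sample and 5 at a mean of 0.1 FPKM, and Hoxc had 2 at 0.1 FPKM. Summed FPKM without 1 library was 15.1 to 15.6 for Hoxa, 1.93 to 2.43 for Hoxb, 0.375 to 0.501 for Hoxc and 0 to 0.0035 for Hoxd.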

Other observations

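The clusters also hold noncoding genes that belong to no comparison above. Hoxaas2, opposite Hoxa3, had 13 to 23 reads in each sample with a mean of 0.259 FPKM. Gm15050 had 32, 22 and 6 reads in NC and 17, 18 and 11 in Met, a spread within the controls that covered all Met samples. Hoxb5os had 6, 8 and 16 reads in NC and 3, 4 and 7 in Met, and Gm11536, opposite Hoxb3 on the chromosome, had 2, 2 and 10 against 9, 1 and 17; neither was called (limma, adjusted p of 0.206 and 0.578). Hotair, the noncoding RNA inside Hoxc, had 0, 3 and 1 reads in NC and 0 in each Met sample. Haglr, beside Hoxd1, had 0 in all 6 samples.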
